A study of Mus musculus with 24 samples.

Results

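Expanded T cell clones that were found in one tumor of a mouse and in no sequence of its other tumor are described here, for the TCRβ and the TCRα chain. A clonotype was a CDR3 amino acid sequence together with its V and its J segment, counted over sequences without the stop mark. Members were chosen by their own counts: a share of at least 0.05% of the retained counts of one tumor (sequences with 2 or more counts) and no such sequence at any count in the paired tumor, which is the other tumor of the same mouse. Of 2114 TCRβ clonotypes that reached 0.05% in a tumor, 903 were members (42.7%), and 1211 had at least 1 count in both tumors. Of 3501 TCRα clonotypes that reached it, 1706 were members (48.7%) and 1795 were found in both tumors. The latter, called shared clonotypes below, served for comparison. The share and the absence are what the rule used, so both are descriptions.

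The tumors were CT26 tumors, grown subcutaneously in both flanks of female BALB/c mice aged 7 to 9 weeks from CT26.CL25, a clone of a colon carcinoma line that expresses lacZ. There were 12 mice in 4 groups of 3, with 2 tumors each and 1 table of sequences per tumor and chain, called a library here. In the time-matched group (mice 6, 12 and 14) both tumors were harvested on day 13. In the time-separated group (mice 4, 17 and 19), which received no DAC and was the study's vehicle group, one tumor was surgically removed on day 9 and the other was taken on day 20. In the 0.5 mg/kg group (mice 3, 11 and 20) and the 2 mg/kg group (mice 7, 10 and 16) the same interval was kept, and decitabine (DAC), an inhibitor of DNA methyltransferases, was injected intraperitoneally on 5 consecutive days from 3 days after surgery, with the last tumor taken 4 days after the last dose. Tumors are numbered 1 and 2 within a mouse, and no label says which of them was taken first, so no value here has a direction in time. All 9 time-separated mice had surgery and the analgesics carprofen and buprenorphine with it. Their tumors also differed in age at harvest, on days 9 and 20 against day 13. So the interval, the tumor age, the surgery and these drugs cannot be told apart in comparisons with the time-matched group. Where all 9 mice were pooled, the DAC given to the 0.5 and 2 mg/kg mice adds to these.

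T cell receptors are heterodimers of an α and a β chain. Each chain is made by joining a V and a J segment (with a D segment between them in β) in a developing T cell, and the trimming and addition of bases at the junction make the CDR3 loop, which lies over the presented peptide. All descendants of one T cell carry the same rearrangement, so a large share of one sequence marks an expanded clone. Some CDR3s are made often, through little or no base addition or through many synonymous routes, and are found in many individuals. These are called public. Since RNA of whole tumors was sequenced, more cells of a clone and more receptor RNA per cell cannot be told apart, and the α and β chains of one cell were not linked.

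Retained counts ranged from 63291 to 887567 in the 24 TCRβ libraries and from 26623 to 846655 in the 24 TCRα libraries. A clonotype with no count in a library may have a share of up to 3 counts of its total, which was between 0.000338% and 0.00474% for TCRβ and between 0.000354% and 0.0113% for TCRα. If a member had had the same share in the paired tumor, the number of counts to be found there had a median of 133 for TCRβ and 87.3 for TCRα, and was lowest at 31.7 for TCRβ and 13.6 for TCRα. A member may still have been present in the paired tumor at a share under these limits, which was not detectable at this depth. The study calls the counts reads, and whether duplicates of a molecule were merged beforehand is not given in the sources used here, so intervals and limits cover counting error only.

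The nucleotide CDR3s of the members on which the results below turn are printed 5′ to 3′. The first set holds the largest TCRβ and the largest TCRα member of all, both from the untreated mouse 19, and the largest of each chain from the untreated mouse 4, because the results return to them. Capitals mark the codons between the first 4 and the last 4, where the segments are joined.
Mouse 19 tumor 1, TRBV13-1/TRBJ2-7: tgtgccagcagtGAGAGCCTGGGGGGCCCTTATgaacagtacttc
Mouse 4 tumor 2, TRBV3/TRBJ2-7: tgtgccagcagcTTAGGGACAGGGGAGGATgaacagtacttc
Mouse 19 tumor 2, TRAV15D-1/DV6D-1 with TRAJ21: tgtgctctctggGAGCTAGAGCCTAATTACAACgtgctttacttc
Mouse 4 tumor 2, TRAV8-1/TRAJ44: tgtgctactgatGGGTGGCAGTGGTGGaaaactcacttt

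The second set holds the 6 members with TRBV19, TRBJ2-1 and a CDR3 of 15 residues that ends in TGGYAEQFF. They are shown because members of 5 mice shared all but residues 5 and 6, whose codons are in capitals.
Mouse 11 tumor 2, residues IK: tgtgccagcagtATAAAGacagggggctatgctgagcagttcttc
Mouse 20 tumor 2, residues IK: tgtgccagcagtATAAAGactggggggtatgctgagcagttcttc
Mouse 17 tumor 2, residues SR: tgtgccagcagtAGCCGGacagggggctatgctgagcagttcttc
Mouse 3 tumor 2, residues TR: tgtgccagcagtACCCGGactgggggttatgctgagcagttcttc
Mouse 11 tumor 2, residues TR: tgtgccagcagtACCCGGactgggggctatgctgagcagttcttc
Mouse 19 tumor 2, residues TR: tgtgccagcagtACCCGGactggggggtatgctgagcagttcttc

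The third set holds public TCRα members, shown because the same protein sequence came with different codons in different mice or because the chain marks a known cell type. Capitals again mark the codons between the first 4 and the last 4.
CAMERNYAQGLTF, mouse 3: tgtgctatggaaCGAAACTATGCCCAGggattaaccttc
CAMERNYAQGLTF, mouse 10: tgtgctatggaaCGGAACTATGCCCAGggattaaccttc
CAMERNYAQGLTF, mouse 11: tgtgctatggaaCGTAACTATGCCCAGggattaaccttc
TRAV11/TRAJ18, mouse 19: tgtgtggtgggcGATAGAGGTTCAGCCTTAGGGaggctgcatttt

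Members were few in the time-matched mice and many in the time-separated ones. On the TCRβ chain, mice 6, 12 and 14 of the time-matched group had 3, 0 and 7 members. The untreated time-separated mice 4, 17 and 19 had 182, 28 and 270. Mice 3, 11 and 20, given 0.5 mg/kg DAC, had 80, 87 and 88, and mice 7, 10 and 16, given 2 mg/kg, had 68, 79 and 11. No time-matched mouse overlapped with any of the 9 time-separated mice, the closest being mouse 14 with 7 and mouse 16 with 11.

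For TCRα, mice 6, 12 and 14 of the time-matched group had 36, 0 and 14 members. The untreated mice 4, 17 and 19 had 231, 99 and 445. With 0.5 mg/kg DAC, mice 3, 11 and 20 had 254, 147 and 168, and with 2 mg/kg, mice 7, 10 and 16 had 106, 118 and 88. Again the time-matched mice lay below all others. Pooled over the mice of a group, members made up 3.83% of the TCRβ clonotypes that reached 0.05% in the time-matched group. They made up 57.8% in the untreated time-separated group, 42.8% with 0.5 mg/kg and 37.1% with 2 mg/kg. The TCRα shares were 9.28%, 62.6%, 58.0% and 42.0% in the same order, against 48.7% over all mice. In single mice the TCRβ percentage was at most 8.54% (mouse 14) in the time-matched group. In the other groups it lay between 12.9% (mouse 16) and 78.5% (mouse 19). The TCRα percentage was at most 12.2% (mouse 6) and between 30.8% (mouse 17) and 85.2% (mouse 19).

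**Figure D1:**
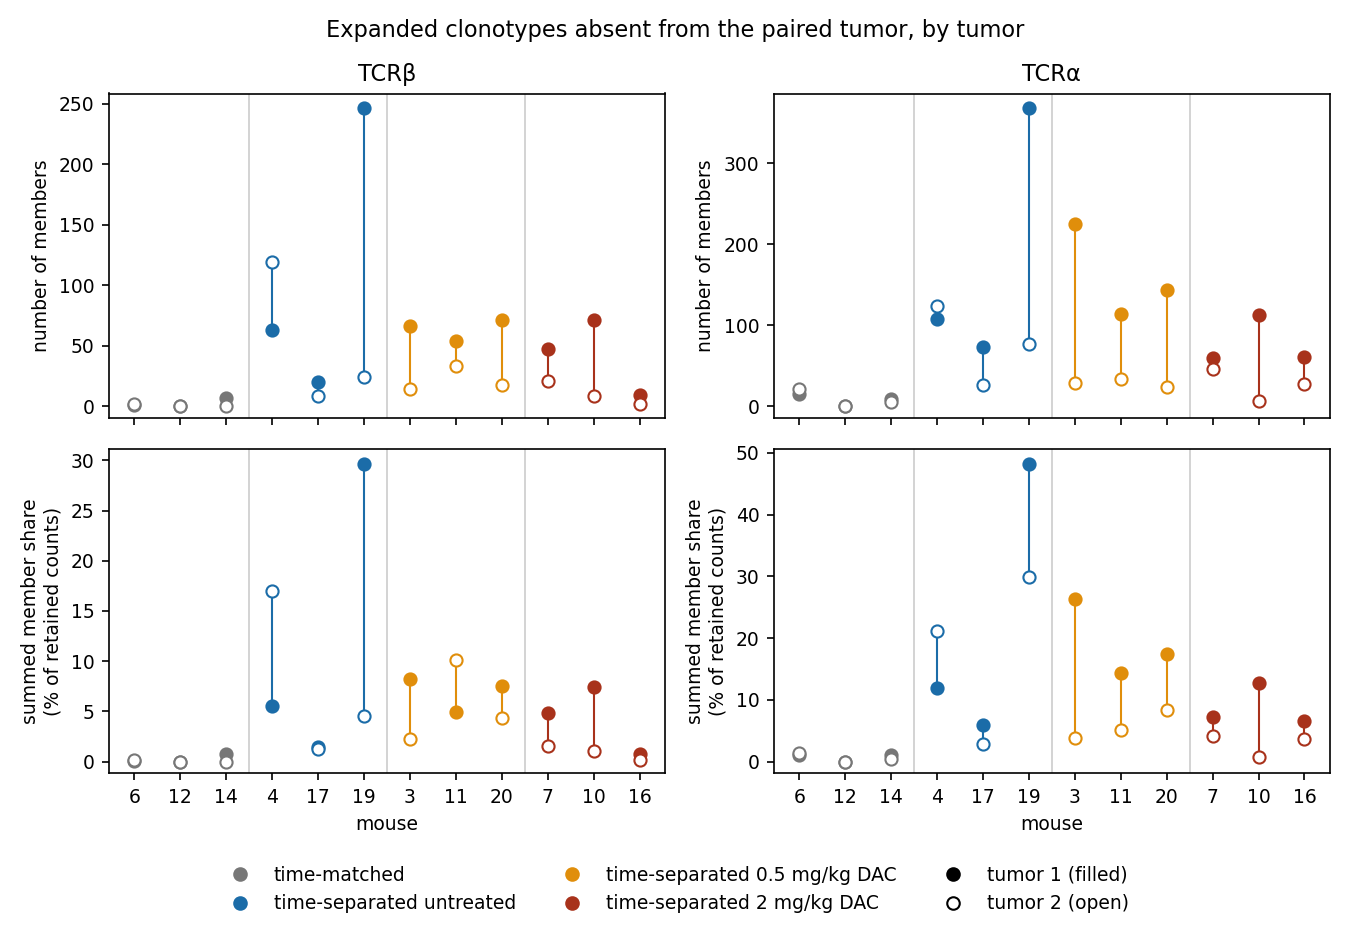
Members per tumor, as a number (upper plots) and as a summed share in percent of retained counts (lower plots), for TCRβ (left) and TCRα (right). Each column is a mouse, colored by group, with tumor 1 filled and tumor 2 open. The time-matched mice 6, 12 and 14 lie at or near 0, and tumor 1 of mouse 19 has the most members, 246 for TCRβ and 368 for TCRα.

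The mean number of TCRβ members was 3.33 ± 3.51 (SD, n = 3) in the time-matched group and 160 ± 122 (SD, n = 3) in the untreated time-separated group. The difference of 157 had an exact permutation p of 0.1 (two-sided, adjusted p = 0.15), which is the smallest that 3 against 3 mice can give. Against all 9 time-separated mice (99.2 ± 79.8, SD) the difference of 95.9 had an exact permutation p of 0.0545 (adjusted p = 0.15). For TCRα, 16.7 ± 18.1 (SD, n = 3) members compared with 258 ± 175 (SD, n = 3) in the untreated group (exact permutation p = 0.1). Against the 9 time-separated mice (184 ± 114, SD) the difference was 167 (exact permutation p = 0.0364, adjusted p = 0.15 over the 12 group tests). So none of these differences passed the adjusted threshold of 0.05.

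The summed share of the members, averaged over the tumors of a mouse, followed the same order. On the TCRβ chain it was 0.163% ± 0.193 (SD, n = 3) in time-matched mice, 9.89% ± 7.96 in untreated time-separated mice, 6.21% ± 1.19 with 0.5 mg/kg DAC and 2.63% ± 1.95 with 2 mg/kg. The TCRα values were 0.658% ± 0.637, 20.0% ± 17.6, 12.6% ± 2.66 and 5.84% ± 0.776 in the same order, each over 3 mice. Mouse 19 moved the differences between the untreated and the time-matched mice by over 1.5 times. Without it they were 6.13 percentage points in place of 9.73 for the TCRβ share and 9.79 in place of 19.3 for the TCRα share, and 102 in place of 157 TCRβ and 148 in place of 242 TCRα members. The small time-matched means rested on single mice too. Without mouse 14 they were 1.5 TCRβ members and 0.0562%, and without mouse 6 they were 7 TCRα members and 0.352%. The highest time-matched value, 0.376% for TCRβ, lay below the lowest time-separated one, 0.470%, and for TCRα 1.27% lay below 4.38%. The TCRβ order did not hold at equal depth, as given below for thinned libraries. Against the 9 time-separated mice, the differences of 6.08 percentage points for TCRβ (exact permutation p = 0.0682) and 12.1 for TCRα (exact permutation p = 0.0864) both had an adjusted p of 0.15.

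Between the 3 time-separated groups, untreated mice had the highest mean and the 2 mg/kg mice the lowest on both chains. For TCRα the first place rested on mouse 19, since without it the untreated means were 165 members and a share of 10.4%, below the 190 and 12.6% with 0.5 mg/kg. For TCRβ they were then 105 and 6.29%, above 85 and 6.21%. Further, the untreated mice 17 and 19 lay below and above nearly all treated mice. The ratio of the sum of squares between these groups to the total was 0.357 for the TCRβ number and 0.346 for the TCRα number (exact permutation p = 0.211 and 0.232, adjusted p = 0.25). For the summed share it was 0.366 for TCRβ (exact permutation p = 0.25) and 0.321 for TCRα (exact permutation p = 0.232). Mouse 17 moved these values across 0.05. Without it, which leaves 2 untreated mice, the ratios were 0.855 for the TCRβ number and share (exact permutation p = 0.00357 for each), 0.688 for the TCRα number (exact permutation p = 0.0321) and 0.685 for the TCRα share (exact permutation p = 0.00357), none adjusted.

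Depth differed between the groups. The 6 time-matched TCRβ libraries held 375898 to 610800 counts and those of the untreated time-separated mice 97815 to 207072. Within the 2 mg/kg group, mouse 10 had 79 TCRβ members in libraries of 332368 and 404331 counts, while mouse 16 had 11 in libraries of 887567 and 404849. When the libraries of a chain were thinned to its smallest, 63291 counts for TCRβ and 26623 for TCRα, the time-matched mice had between 0.25 and 7.1 TCRβ members (means of 20 draws) and the 9 other mice between 13.5 and 278. For TCRα they had between 0.3 and 52.2 and the others between 102 and 450. By number the groups did not overlap at equal depth either. By summed TCRβ share they did, since the thinned value was 0.659% in time-matched mouse 14 and 0.577% in mouse 16. The thinned TCRα shares did not overlap, with at most 1.86% in time-matched mice and at least 5.63% in the others.

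Tumor 1 held more members than tumor 2 in 8 of the 9 time-separated mice on each chain, the exception on both chains being mouse 4. By summed share, tumor 1 was higher in 7 of 9 mice for TCRβ and in 8 of 9 for TCRα. In all, 655 of the TCRβ members (72.5%) and 1288 of the TCRα members (75.5%) lay in tumor 1. In the time-separated mice, more clonotypes reached 0.05% in tumor 1 in all but mouse 4 for TCRβ and mouse 7 for TCRα. Its library was deeper in all but mice 10 and 19 on each chain, so absence was called there in the shallower library. As a percentage of the clonotypes that reached 0.05% in the same tumor, members were still more frequent in tumor 1 in all but mouse 4. The cause was not tested. In mouse 19, tumor 1 had 246 TCRβ members with a summed share of 29.7% and tumor 2 had 24 with 4.52%. In mouse 4, tumor 1 had 63 with 5.55% and tumor 2 had 119 with 16.9%. In tumor 1 of mouse 19, 83.1% of the TCRβ clonotypes and 87.0% of the TCRα clonotypes that reached 0.05% were members, the highest of any tumor.

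The chains, which came from the same RNA, were compared by the summed member share of tumor 2 minus that of tumor 1. The same tumor was higher on both chains in 10 of the 11 mice that had members, the exception being mouse 11. Tumor 1 was the higher one in 8 of 12 mice for TCRβ and in 9 for TCRα. Part of the agreement in 10 mice follows from that alone. Over 12 mice Pearson's r was 0.723 (permutation p = 0.0084) and Spearman's rho 0.748 (permutation p = 0.00702). Without the 2 mice farthest from the median, r was 0.513 (permutation p = 0.135) and rho 0.588 (permutation p = 0.0807) over 10 mice, so the relation did not pass without those 2 mice and its call rested on them. With a share minimum of 0.1% or 0.2%, r over 12 mice was 0.581 (permutation p = 0.0501) or 0.133 (permutation p = 0.673), and neither passed. With each value centred on the mean of its group and permuted within groups, r was 0.912 (exact permutation p = 0.0208) and rho 0.748 (exact permutation p = 0.0579). One relation was computed, so no adjustment applies.

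Most members were small clones. The median share was 0.0759% for TCRβ and 0.0792% for TCRα. Of the TCRβ clonotypes between 0.05% and 0.1%, 621 of 1106 were members (56.1%), of those between 0.1% and 0.5%, 252 of 686 (36.7%), of those between 0.5% and 1%, 22 of 112 (19.6%), and of those of 1% or more, 8 of 210 (3.81%). For TCRα the members were 1114 of 1750 (63.7%), 550 of 1352 (40.7%), 27 of 167 (16.2%) and 15 of 232 (6.47%). No member of a time-matched mouse reached 0.5% on either chain, while 30 TCRβ and 42 TCRα members of time-separated mice did.

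**Figure D2:**
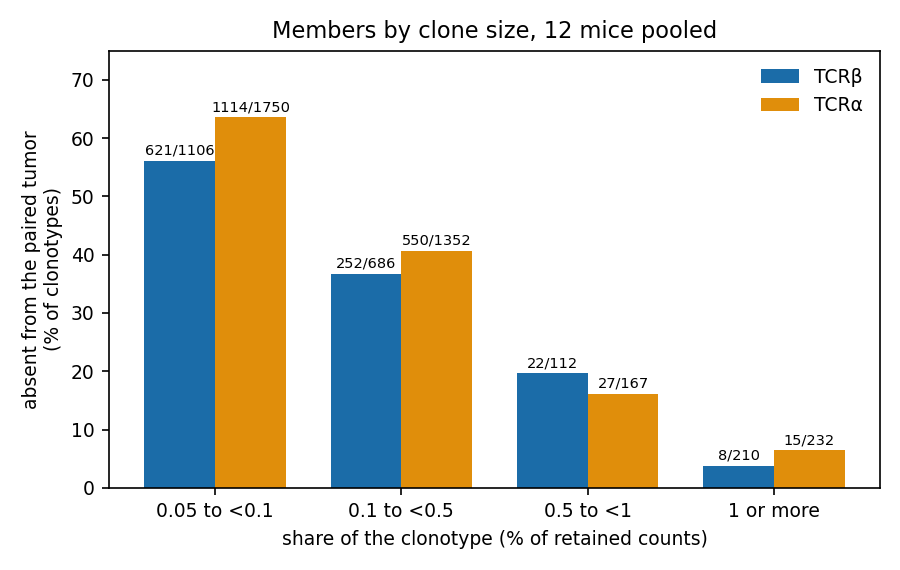
Percentage of clonotypes absent from the paired tumor by their share in percent of retained counts, with all 12 mice pooled, for TCRβ (blue) and TCRα (orange). The numbers over the bars are members of all clonotypes in the class, and the percentage falls from 56.1% to 3.81% for TCRβ and from 63.7% to 6.47% for TCRα.

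The largest member of all was a TCRα chain of tumor 2 of mouse 19, of TRAV15D-1/DV6D-1, TRAJ21 and 15 residues. It had 10224 of 87179 counts, a share of 11.7% (95% Clopper-Pearson interval 11.5% to 11.9%), and held rank 2 in its tumor. Tumor 1 of that mouse had no count of it among 87159, which allows up to 0.00344%. A DV segment can be joined in α and in δ chains. The same nucleotide CDR3 was also listed in 5 other mice, with 6 counts over all of them. Tumor 1 had a neighbour of it with the same V, J and length and 1 residue changed.

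In mouse 4, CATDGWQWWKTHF with TRAV8-1 and TRAJ44 had 2.55% of the TCRα counts of tumor 2 (95% interval 2.43% to 2.66%), and no other mouse had it. The same tumor held the TCRβ member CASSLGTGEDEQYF with TRBV3 and TRBJ2-7 at 1.25% (1.20% to 1.30%). The largest TCRβ member of all lay in tumor 1 of mouse 19, a 15-residue chain of TRBV13-1 and TRBJ2-7 with 1666 of 97815 counts, or 1.70% (1.62% to 1.79%), at rank 6. Its sequence was found in 2 other mice with 2 counts in all, and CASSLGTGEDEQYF in 5 other mice with 5 counts in all, so that both count among the members found in other mice.

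With 0.5 mg/kg DAC the largest TCRβ member of each mouse was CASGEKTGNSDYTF (TRBV13-2, TRBJ1-2) at 1.30% of tumor 2 of mouse 11, a TRBV19/TRBJ2-1 chain at 0.962% of tumor 2 of mouse 20, and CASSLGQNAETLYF (TRBV5, TRBJ2-3) at 0.942% of tumor 1 of mouse 3. The largest TCRα member of each was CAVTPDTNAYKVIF (TRAV3-1, TRAJ30) at 1.47% in mouse 11, a TRAV7-4/TRAJ17 chain at 1.29% in mouse 20 and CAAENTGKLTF (TRAV4-3, TRAJ27) at 1.03% in mouse 3. All 6 held ranks between 11 and 18 in their tumors.

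With 2 mg/kg DAC, taking again the largest member of each mouse and chain, mouse 7 had a 16-residue TRBV5/TRBJ1-2 chain at 1.20% and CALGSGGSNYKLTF (TRAV12-1, TRAJ53) at 1.22%, both in tumor 1. The paired library of the latter held 26623 counts, the fewest of any, where 325 counts would have been found at equal share. Mouse 10 had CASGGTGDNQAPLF (TRBV13-2, TRBJ1-5) at 0.421% and a 16-residue TRAV6-6/TRAJ53 chain at 0.646%. Mouse 16 had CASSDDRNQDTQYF (TRBV13-3, TRBJ2-5) at 0.160% and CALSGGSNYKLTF (TRAV12-1, TRAJ53) at 0.677%. Mouse 17 was the only time-separated mouse with no member of 0.5% or more on either chain, its largest being 0.419% for TRBV19/TRBJ2-1 and 0.342% for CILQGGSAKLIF (TRAV21/DV12, TRAJ57).

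The largest members of the time-matched mice were smaller. In mouse 14, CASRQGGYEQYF (TRBV3, TRBJ2-7) had 0.273% and a TRAV16/TRAJ58 chain 0.404%, both in tumor 1. In mouse 6, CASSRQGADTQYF (TRBV17, TRBJ2-5) had 0.101% and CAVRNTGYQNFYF (TRAV7-3, TRAJ49) 0.148%. Just inside the rule were a TRBV1/TRBJ1-6 chain of mouse 3 with 93 counts (0.0500186%) and a TRAV5-1/TRAJ26 chain of mouse 3 with 33 counts (0.0500607%). Just outside were a TRBV14/TRBJ2-3 chain of mouse 10 (0.0499446%) and a TRAV12-2/TRAJ49 chain of mouse 16 (0.0499968%). Clonotypes that reached 0.05% and had only 1 to 3 counts in the paired tumor numbered 49 for TCRβ and 73 for TCRα, and these were not members.

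Whether a member was also found in another mouse was not used by the rule, but presence in the paired tumor was. A sequence that occurs in many libraries is more likely to have a count there and so to be a shared clonotype. The directions of the comparisons with other mice below are thus partly built in, and their p-values are no independent support. The alternatives given with them do not remove this. Members were found in any tumor of another mouse in 27.0% ± 9.78 of TCRβ cases and shared clonotypes in 53.3% ± 6.23 (SD over the 11 mice with at least 3 members). The difference of -26.3 percentage points had the same sign in 11 of 11 mice (exact sign-flip permutation p = 0.000977, the smallest that 11 mice can give, adjusted p = 0.00195 over 6 tests). For TCRα it was 32.8% ± 3.60 against 49.9% ± 6.28, a difference of -17.1 percentage points, again in 11 of 11 mice (exact p = 0.000977, adjusted p = 0.00195). Members were less often public than shared clonotypes of the same mouse on both chains.

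Shared clonotypes were larger than members, and size moved with this result. When only clonotypes below 0.1% were compared, the TCRβ difference was -15.0 percentage points (exact p = 0.00195, 10 mice) and the TCRα difference was -6.11 (exact p = 0.0879, 11 mice), so that the TCRα difference did not pass in this size range. When shared clonotypes larger than the largest member of the mouse were left out, the differences were -15.5 (exact p = 0.000977) and -12.7 (exact p = 0.00195) percentage points. When other mice counted only with sequences of 2 or more counts, the differences were -18.9 and -11.5 percentage points for TCRβ and TCRα. When they counted only with a nucleotide CDR3 other than the main one of the clonotype, they were -17.3 and -14.6 (exact p = 0.000977 for each of these 4).

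**Figure D3:**
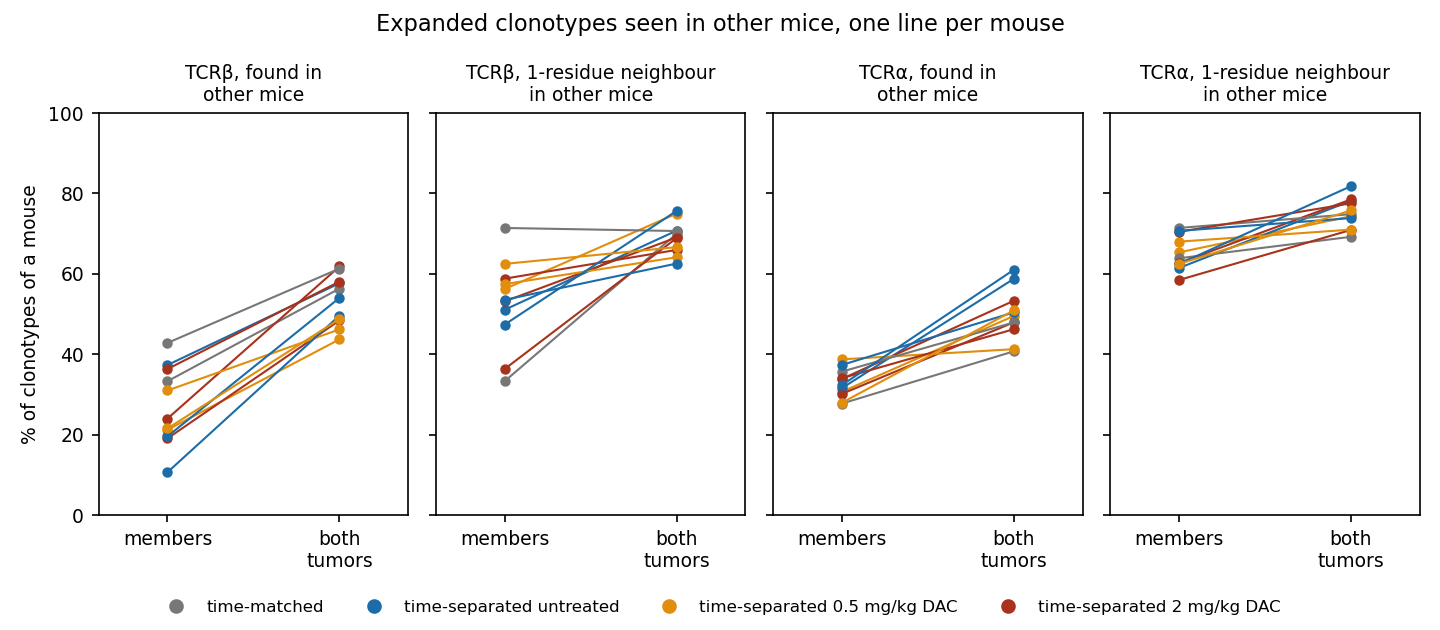
Percentage of the clonotypes of a mouse that were found in other mice, or that had a neighbour there with the same V, J and length and 1 residue changed, for members and for clonotypes of both tumors. Each line is 1 of 11 mice, colored by group. Lines rise in 11 of 11 mice in each plot except for TCRβ neighbours, where they rise in 10.

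A neighbour that differed in 1 residue and had the same V, J and length was found in other mice for 52.9% ± 10.9 of TCRβ members and 69.0% ± 4.08 of shared clonotypes (lower in 10 of 11 mice, exact p = 0.00195, adjusted p = 0.00293). For TCRα it was 65.2% ± 4.32 and 75.1% ± 3.79 (lower in 11 of 11 mice, exact p = 0.000977, adjusted p = 0.00195). With a share minimum of 0.1% the TCRβ difference went from -16.2 to -8.03 percentage points (exact p = 0.129, 9 mice), and with the CDR3 alone as the clonotype the TCRα difference went from -9.87 to -2.09 (exact p = 0.167). In the paired tumor itself, 64 TCRβ members (7.09%) and 162 TCRα members (9.50%) had such a neighbour.

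Counted over all mice, with a clonotype counted once in each mouse where it was a member, 676 of the TCRβ members (74.9%) and 1153 of the TCRα members (67.6%) were found in no other mouse. No TCRβ member was found in all 11 other mice, while 44 shared TCRβ clonotypes were (3.63%, 15 of them distinct). On the TCRα chain 17 members (0.996%, 10 distinct) and 80 shared clonotypes (4.46%, 12 distinct) were. Of the members found elsewhere, 60.4% for TCRβ and 68.0% for TCRα had the same main nucleotide CDR3 in another mouse, against 80.2% and 76.7% of shared clonotypes.

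The CDR3 of TCRβ members had a mean length of 13.9 ± 0.284 residues (SD over 11 mice) and that of shared clonotypes 13.6 ± 0.406. The difference of 0.309 residues, higher in 9 of 11 mice, did not pass (exact sign-flip permutation p = 0.0742, adjusted p = 0.0891). It was lower in mice 14 and 19, and without either mouse the p was 0.0137 or 0.0410, unadjusted. With a minimum of 0.02% it was 0.277 residues (exact p = 0.0439, 12 mice) and with 0.1% it was 0.476 (exact p = 0.0117, 9 mice), both unadjusted. Among clonotypes below 0.1% it was 0.0797 residues (exact p = 0.754), with a minimum of 0.2% it was 0.0547 (exact p = 0.906, 6 mice), and without shared clonotypes larger than the largest member it was 0.176 (exact p = 0.348). TCRα members had 13.6 ± 0.134 residues and shared clonotypes 13.6 ± 0.0999 (difference -0.0300, exact p = 0.594). The median was 14 residues for members and shared clonotypes of both chains, with members ranging from 10 to 19 for TCRβ and from 8 to 25 for TCRα.

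V and J usage was compared within the 11 mice as the percentage of clonotypes, counting each clonotype once. After Benjamini-Hochberg adjustment of the exact sign-flip permutation test, 0 of 29 TCRβ segments (0%) and 0 of 104 TCRα segments (0%) passed, with 2 and 9 at an unadjusted p below 0.05. Pooled over all mice, TRBV5 was the most used V among TCRβ members, with 132 (14.6%, against 8.01% of shared clonotypes). It was followed by TRBV1 with 99 (11.0% and 6.28%) and TRBV13-2 with 98 (10.9% and 13.5%). As a mean over the 11 mice, TRBV19 came first among members with 12.4%, and TRBV5 had 10.8%. TRBJ2-7 was the most used J, with 181 members (20.0% and 22.4%). Pooled likewise, TRAV7-4 led the TCRα members with 116 (6.80% and 7.97%) and TRAJ40 the J segments with 94 (5.51% and 9.75%). As a mean over the 11 mice, TRAJ49 had 8.78% of members and TRAJ40 6.03%.

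TRBV17 had the largest difference below 0 on the TCRβ chain, 9.78% ± 19.3 of members and 16.2% ± 6.86 of shared clonotypes (SD over 11 mice), but the time-matched mice 6 and 14 opposed the other 9. In mouse 6 it made up 66.7% of only 3 members. The difference of -6.43 percentage points, in 9 of 11 mice, had an adjusted p of 0.798 by the exact test. With a share minimum of 0.02%, where all 12 mice had at least 3 members, it was 5.13% against 17.2%, lower in 11 of 12 mice (exact sign-flip permutation, adjusted p = 0.0332). TRBV13-1 differed by -4.67 percentage points, in 10 of 11 mice (exact sign-flip permutation, adjusted p = 0.382), and TRBV13-2 by -3.33, or by -0.825 without mouse 16. The difference of TRBV17 was -11.1 without mouse 6 and -4.33 without mouse 19. TRBV19, TRBV1 and TRBV5 had the largest mean differences above 0, of 4.50, 3.33 and 2.82 percentage points. That of TRBV19 rested on mouse 6, where 33.3% of the 3 members and 2.73% of shared clonotypes used it, and the segment was higher in members in 6 mice and lower in 5. Without mouse 6 the differences were 1.89 for TRBV19, 4.66 for TRBV1 and 3.74 for TRBV5. Without mouse 14 they were 5.62, 2.77 and 4.44 in the same order.

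**Figure D4:**
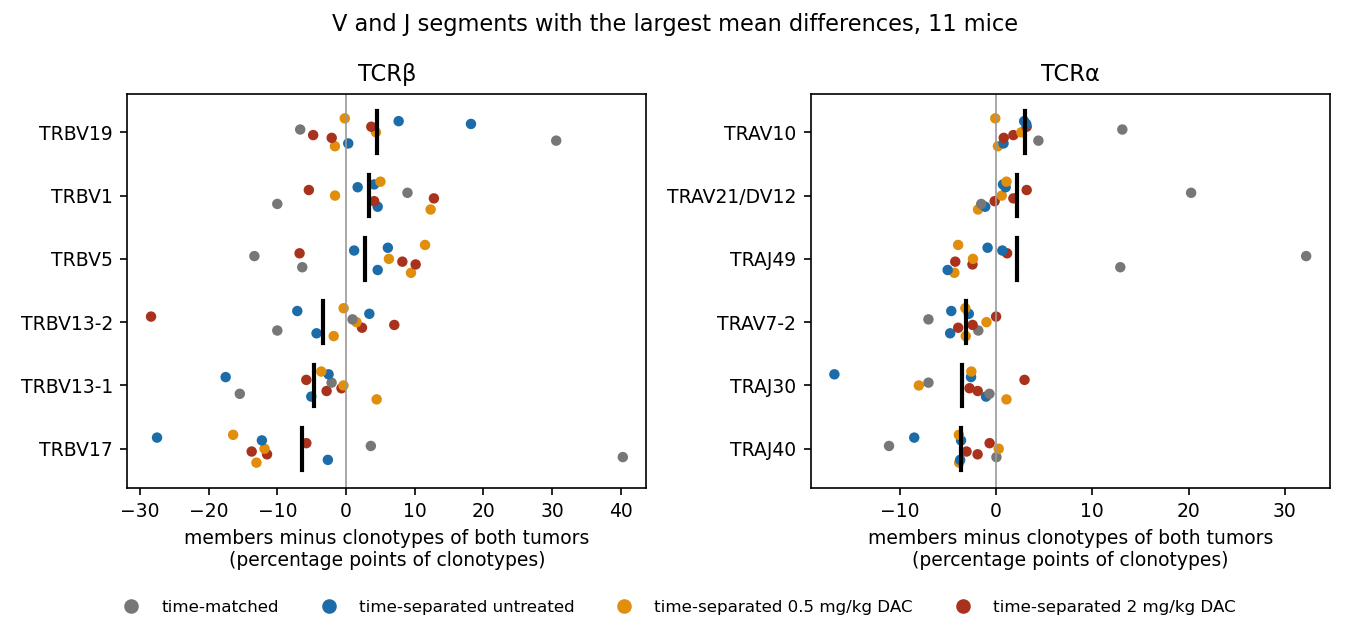
Usage of V and J segments among members minus that among clonotypes of both tumors, in percentage points, for the 3 segments per direction and chain with the largest mean differences. Each point is 1 of 11 mice, colored by group, and black bars are means. The time-matched mice, with 3 to 36 members, hold the extreme points of TRBV17, TRBV19, TRAV10, TRAV21/DV12 and TRAJ49, and no segment passed the adjusted threshold.

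On the TCRα chain, TRAJ40 (-3.63), TRAJ30 (-3.57) and TRAV7-2 (-3.16) had the largest differences below 0, in percentage points, and that of TRAJ30 was -2.25 without mouse 19. TRAV7-2 made up 2.78% ± 1.29 of members and 5.94% ± 1.30 of shared clonotypes and was lower in 10 of 11 mice (exact p = 0.00195, adjusted p = 0.102). TRAV10 (2.99), TRAV21/DV12 (2.18) and TRAJ49 (2.15) had the largest mean differences above 0. That of TRAV21/DV12 rested on mouse 14, with 21.4% of members and 1.17% of shared clonotypes, and was 0.371 without it. That of TRAJ49 came from the time-matched mice 6 and 14, was -0.852 without mouse 14, and the segment was higher in members in 4 mice and lower in 7, with 5.04% of all members and 6.52% of all shared clonotypes. TRAV10, with 4.29% ± 3.51 of members and 1.30% ± 0.597 of shared clonotypes, was higher in 10 of 11 mice (exact p = 0.00195, adjusted p = 0.102), and its difference was 1.98 without mouse 14. With a share minimum of 0.02%, 5 of the TCRα segments passed. TRAV7-2, TRAV9D-4 and TRAJ40 were lower in members, and TRAV3-1 and TRAV4-3 were higher. TRAV3-1 then made up 6.46% of members and 2.28% of shared clonotypes, higher in 12 of 12 mice (adjusted p = 0.0182 by the exact test).

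Chains that mark known T cell types were counted among the members. Invariant natural killer T cells, which recognise lipids on CD1d, use TRAV11 joined to TRAJ18, and 1 member and 13 shared clonotypes had this pair. That member had 1455 of 87159 counts in tumor 1 of mouse 19, a share of 1.67% (95% Clopper-Pearson interval 1.59% to 1.76%) at rank 3, and no count in tumor 2, which allows up to 0.00344%. All 11 other mice had the same nucleotide CDR3, at up to 0.705%, so that this was at once a public chain and one of the largest members. Mucosal-associated invariant T cells, which recognise vitamin B metabolites on MR1, use TRAV1 joined to TRAJ33. There were 3 members with that pair, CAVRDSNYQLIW in mice 19 and 20 and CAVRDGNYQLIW in mouse 7, and 3 shared clonotypes.

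In BALB/c mice, T cells with certain Vβ segments are deleted in the thymus by superantigens of endogenous retroviruses. Of the 5 such segments counted (TRBV12-1, TRBV12-2, TRBV15, TRBV16 and TRBV26), members held 26 clonotypes (2.88%) and shared clonotypes 25 (2.06%). TRBV15 and TRBV16 accounted for 12 members each, and TRBV12-2 for none. Segments that α and δ chains have in common (TRAV/DV) or that are named as δ segments (TRDV) were used by 148 TCRα members (8.68%) and 121 shared clonotypes (6.74%). Among these, TRDV1 had 25 members and 16 shared clonotypes, TRDV2-2 had 12 and 4, and TRDV2-1 had 3 and 3. The totals of both sets of segments were not tested.

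Most members belonged to 1 mouse, but some clonotypes were members in several. On the TCRβ chain 6 clonotypes were members in 2 or more mice and 2 of them in 3. For TCRα, 42 were members in 2 or more mice and 9 in 3 or more. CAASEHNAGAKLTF with TRAV7-4 and TRAJ39 was a member in 4 mice, at 0.115%, 0.0662%, 0.0927% and 0.0539% of tumor 1 of mice 3, 7, 17 and 19, with the same nucleotide CDR3 in each. All 28 occurrences of the 9 TCRα clonotypes that were members in 3 or more mice lay in tumor 1, which held 75.5% of all TCRα members.

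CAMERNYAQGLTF with TRAV13-1 and TRAJ26 was a member in mice 3, 10 and 11, at 0.0986%, 0.238% and 0.290%. As the printed sequences show, the main nucleotide CDR3 of the 3 mice differed in the codon of residue 5, an arginine. The same CDR3 with TRAV13D-1, a near copy of TRAV13-1 from the duplicated part of the locus, was a member in mice 4, 7 and 20. In these 3 mice and in mouse 10 the CDR3 was also found in the paired tumor under another V or J. That was so for 11 TCRβ members (1.22%) and 75 TCRα members (4.40%). Near-identical V segments can be assigned either way, so these members are uncertain, and of the 6 occurrences of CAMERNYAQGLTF only those in mice 3 and 11 were absent whatever the V.

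The members found in the most other mice were, for TCRβ, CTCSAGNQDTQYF (TRBV1, TRBJ2-5), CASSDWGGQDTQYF (TRBV13-3, TRBJ2-5) and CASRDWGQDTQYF (TRBV4, TRBJ2-5), each in 8 other mice and all of them with TRBJ2-5. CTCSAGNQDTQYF was a member in mice 3, 7 and 10, at 0.681%, 0.0910% and 0.0728% of tumor 1, with a different main nucleotide CDR3 in each. For TCRα, 17 members tied at 11 other mice, which were 10 distinct clonotypes, some of them members in several mice. The 3 of these with the highest summed share in the other mice were the TRAV11/TRAJ18 chain, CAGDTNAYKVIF (TRAV7-1, TRAJ30) and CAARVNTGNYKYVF (TRAV7-2, TRAJ40). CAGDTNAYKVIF was a member in mouse 16 at 0.0681% with this V. Its CDR3 was found in the paired tumor under another segment, so its absence there holds for this V assignment only.

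The TRBV19/TRBJ2-1 members of 15 residues ending in TGGYAEQFF were noticed among the largest and the repeated members, so what follows is a description with no test. Of 10 members with that V, J and length, 6 had this ending, and 8 of 26 such shared clonotypes had it. All 6 lay in tumor 2, in 5 mice, while tumor 2 held 248 of all 903 TCRβ members. The sequence with residues TR was a member in mice 3, 11 and 19, at 0.231%, 0.427% and 0.130%, and the 3 mice differed in its nucleotides in a glycine codon. The one with residues IK was a member in mice 11 and 20, at 0.842% and 0.962%, and the one with residues SR in mouse 17, at 0.419%. No 2 of the 6 members had the same main nucleotide CDR3.

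All retained TRBV19/TRBJ2-1 clonotypes of 15 residues with this ending, members or not, were then summed per tumor. In the time-separated mice 4 and 16 neither tumor had any. In the other 7 time-separated mice tumor 2 had the higher share in 7 of 7, a direction that the members, absent from tumor 1 by the rule, fix in part. In mouse 17 it was 0.304% in tumor 1 and 1.42% in tumor 2, in mouse 10 it was 0.148% and 0.569%, and in mouse 11 it was 5.47% and 6.56%. In mice 3, 19 and 20 tumor 1 had no retained count and tumor 2 had 0.237%, 0.131% and 0.978%. Nearly all of that was the member itself, and without members tumor 2 had 0.00632%, 0.000972% and 0.0166%. Without its members, tumor 2 of mouse 11 had 5.29% and lay below tumor 1, and that of mouse 17 had 1.00%. Counted without members, tumor 2 was higher in 6 of the 7 mice. In mouse 19 this was by 2 counts, a share under the 0.00307% that the absence from tumor 1 allows. In the 6 other mice tumor 2 was higher in 5 and lower in mouse 11. But in mouse 3 the member had 146 of the 150 counts of tumor 2, and in mouse 20 it had 927 of 943. Only mice 10, 11 and 17 had more than 24 counts beside members in a tumor, with tumor 2 higher in mice 10 and 17. In mouse 7, which like mouse 10 had no member of this kind, the values were 0.00847% and 0.0374%, from 24 counts in each library. The time-matched mice had 0.187% and 0.292% (mouse 6), 0.249% and 0.240% (mouse 12) and 0.0923% and 0.0933% (mouse 14). Their tumors were close to each other, and tumor 2 was higher in 2 of 3.

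**Figure D5:**
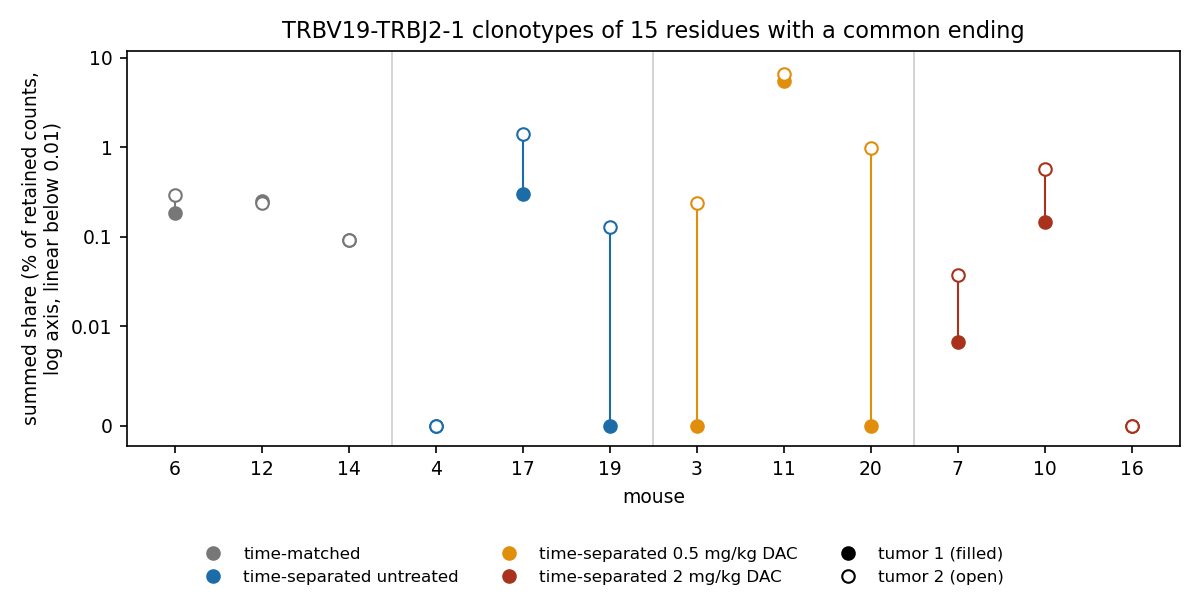
Summed share of TRBV19/TRBJ2-1 clonotypes of 15 residues ending in TGGYAEQFF, in percent of retained TCRβ counts on an axis that is logarithmic above 0.01% and linear below it. Each column is a mouse, colored by group, with tumor 1 filled and tumor 2 open. In 7 time-separated mice tumor 2 lies above tumor 1, at 0 in tumor 1 of mice 3, 19 and 20, and mice 4 and 16 have none.

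Of the members, 1 of TCRβ and 5 of TCRα lay 1 base from a clonotype with the same V and J and at least 20 times the counts in the same tumor. When the sequences with the stop mark were also searched in the paired tumor, with undetermined bases taken as any base, 902 of the 903 TCRβ members and 1704 of the 1706 TCRα members remained.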

How the data were processed

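TCRα and TCRβ libraries with unique molecular identifiers were made from RNA of whole tumors. The authors pre-processed the reads, analysed the identifiers and called clonotypes with the Cogent NGS Immune Profiler, and deposited raw counts per sequence (read_count), unnormalized and unfiltered. The study's text calls them reads. Whether they were merged by identifier, and which segment reference was used, are not given in the sources used here. Sequences with the stop mark (7.93% of TCRβ and 14.1% of TCRα counts) were left out. Of these 147186 TCRβ and 133955 TCRα sequences, 67.1% and 69.0% held an undetermined base. As in the study's methods, single-count sequences did not enter shares, but they counted as presence in the paired tumor.

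Groups came from the sample labels, and the mouse was the replicate, with tumors paired by mouse. Group means were compared by exact permutation tests, members with shared clonotypes by exact sign-flip tests within mice with at least 3 of each, and chains by 100000 permutations, two-sided throughout. Separate animals were used, so p-values measure the spread between mice. Benjamini-Hochberg adjustment covered 12 group tests, 6 feature tests, and all segments of a chain seen in at least 3 mice. Named clonotypes were the largest member per mouse and chain, the 3 per chain found in the most other mice, and the members nearest the minimum. Named segments were up to 3 per direction. Other clonotypes were named after their values were seen. CDR3s over 14 residues are given by segments and length. The members, lists and tests were chosen with earlier results of these data known, among them the share of clonotypes private to a tumor, so group differences in members are not independent of those. Alternatives changed the share minimum, the search for absence, the clonotype definition, the minimum count, the depth, the comparison clonotypes and the mice. The comparison below 0.1%, the stricter searches of other mice and the correlation centred on groups were added after the data were seen. The rule and tests were tested on simulated data. Scripts ran in Python 3.11.15 with pandas 2.3.3, scipy 1.17.1 and numpy 2.4.6, and figures were drawn with matplotlib 3.10.9.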

Additional observations from a re-analysis of the deposited data

Results flagged for a closer look

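In 16 sets of 6 tumors (a group, a chain, and the number or the summed share of members), the highest or lowest tumor was set against the spread of the others, and 3 stood apart by Dixon's ratio. Chance marks about 1 set in 20 where the 6 values are independent, which the paired tumors of 3 mice are not, and number and share of a set overlap. Tumor 1 of time-matched mouse 14 had 7 TCRβ members, against 0 to 2 in the other time-matched tumors, and a summed TCRβ share of 0.753%, against 0% to 0.168%. Its TCRα chain was not marked. Tumor 1 of untreated time-separated mouse 19 had 368 TCRα members, against 26 to 124 in the other tumors of its group. Its summed TCRβ share and its TCRβ number were not marked, although its 246 TCRβ members were the most of any tumor. In that library 87.0% of the TCRα clonotypes at the minimum were members, at 87159 counts against 87179 in the paired library.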

How the results depend on the processing

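Members were fewer at higher minimums, 282 and 96 for TCRβ at 0.1% and 0.2%, and 3860 at 0.02%, and 592, 219 and 5582 for TCRα. Of 325 alternative values with a test, 291 kept their direction and their side of an unadjusted p of 0.05, and of 36 counts of segments 34 stayed at 0. Not counted are 68 values of 3 against 3 mice or fewer, which cannot pass 0.05, and 6 that leave out mouse 12, which had no members. CDR3 length in TCRα turned from -0.0300 to 0.0348 (0.02% minimum), 0.0265 (0.1%), 0.010 (CDR3 alone) and 0.0201 (V family), with -0.0544 to 0.00440 without single mice. In TCRβ it was 0.277 and 0.476 residues at 0.02% and 0.1%, now past 0.05, but 0.0547 at 0.2% and 0.176 without larger shared clonotypes, and 0.252 to 0.414 without single mice. Presence in other mice was -18.0 percentage points for TCRβ at 0.2% (exact p = 0.0938, 6 mice) and -6.11 for TCRα below 0.1%. Neighbours in other mice were -8.03 and -9.64 for TCRβ at 0.1% and 0.2%, and -5.34 (0.2%) and -2.09 (CDR3 alone) for TCRα, none past 0.05. Segments past the adjusted threshold were 1 for TCRβ and 5 for TCRα at 0.02%. Against the 9 time-separated mice, TCRα numbers differed by 23.9 at 0.2% (exact p = 0.05), and TCRβ numbers and shares by 87.9 and 5.52 with single counts kept (exact p = 0.0364 and 0.0455). Without single mice these differences were 135 to 179 (TCRα number), 74.5 to 107 (TCRβ number), 8.86 to 13.2 (TCRα share) and 4.73 to 6.81 (TCRβ share), past 0.05 for the TCRα number except without mouse 6, 12 or 14, for the TCRα share without mouse 19, for the TCRβ number without mouse 17 or 16, and for the TCRβ share without 17, 19 or 16. The ratios between the 3 time-separated groups were 0.277 to 0.688 and 0.271 to 0.685 (TCRα number and share) and 0.195 to 0.855 and 0.272 to 0.855 (TCRβ), past 0.05 without mouse 17 only. The correlation between chains was 0.581 at 0.1%, 0.133 at 0.2% and 0.513 without the 2 farthest mice. The causes were not tested. Neighbours under nucleotide clonotypes were not run. No paired analysis between groups was possible because the groups consist of different mice.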
